A study of Arabidopsis thaliana with 8 samples.

Results

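The response of a gene to root wounding is given here as the log2 ratio of its signal in shoots of wounded seedlings over its signal in shoots of unwounded seedlings taken at the same time. Described below is how far that response had changed by 360 min, gene by gene: the log2 ratio at 360 min minus the log2 ratio at 30 min. All 8 of the 8 arrays of the series enter this contrast, 4 at each time, and it was obtained for 19145 of the 21500 genes on the array. A negative difference says that the ratio was lower at 360 min than at 30 min, whichever of the RNAs had moved. The study measured how a wound to the root is answered in the shoot.

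All seedlings were Arabidopsis thaliana of ecotype Columbia-0, 13 days old, raised at 22 °C on agar medium with 3% sucrose under 16 h of light and 8 h of dark. The groups were shoots harvested 360 min after the primary root had been cut with a razor blade at 5 mm from the shoot base, shoots of unwounded seedlings of that time, shoots harvested 30 min after the same wound, and shoots of unwounded seedlings of that earlier time. Each group had 2 biological replicates, and a wounded and an unwounded RNA were hybridised together on a 2-colour Agilent array and again with the dyes exchanged. The 2 arrays of such a pair were averaged into 1 replicate, which had no value where a spot on either array was an outlier. All 4 replicates, 2 at each time, had a value for 17444 of the 19145 genes. Of the differences called below, 72 rest on 1 replicate at one of the times, which was then assumed to vary like the replicates of the other time. How many seedlings made up a replicate, and whether unwounded seedlings were handled in the same way apart from the cut, is not given in the sources used here.

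Damage to one organ is passed on to others by electrical, calcium and pressure signals in the vasculature, and in the receiving tissue these start the synthesis of jasmonate from chloroplast lipids. Jasmonate joined to isoleucine brings the receptor COI1 to the JAZ repressors, the repressors are degraded, and MYC2 and related factors switch on genes of jasmonate synthesis and breakdown, the JAZ genes themselves and, later, defence and storage proteins. Because the same cascade makes its own repressors and catabolic enzymes, its early transcripts are known to be transient.

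The arrays of 30 min were the dimmer ones. Median red signals were 323 to 431 on the 360 min arrays, against 184 to 271 on the 30 min arrays, and of all probes, 89.6% to 94.9% at 360 min, against 72.3% to 88.6% at 30 min, exceeded the background clearly in wounded RNA. The SD of the difference between replicates over all genes was 0.15 at 360 min and 0.12 at 30 min on the log2 scale. The replicates correlated at 0.661 at 360 min and at 0.862 at 30 min (Pearson). Outlier spots numbered 982 and 1016 on the arrays of 360 min replicate 1, against 86 to 275 on the other arrays. The dye-swap arrays of that replicate correlated at 0.425, against 0.614 to 0.799 for the other pairs. Each pair of arrays was extracted from its scans as a batch of its own, so that batch, replicate and time cannot be told apart. The label of the tissue was checked with genes of photosynthesis, of which all 25 were tested, with mean log2 signals of 13.9 in wounded and 13.7 in unwounded shoots at 360 min, and 14.1 in both at 30 min. Of 14 root markers 11 were tested, with mean log2 signals of 7.21 in wounded and 7.23 in unwounded shoots at 360 min and 7.08 in both at 30 min. The wound response differed between the times past the threshold for 0 of these 11, against 7.39% of all genes. Among 11 genes often used as references, UBQ10 was higher at 360 min, with log2 ratios of 0.24 and 0.18 at 360 min, against -0.50 and -0.48 at 30 min, UBQ5 was lower (-0.37), and both calls were lost without either replicate of 30 min (in each of the fits that left out 1 of them), that of UBQ5 also without 360 min replicate 2. In whole shoots, fewer cells of a type and less RNA per cell cannot be told apart.

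The wound response differed between the times for 1414 of 19145 genes, or 7.39%, at an adjusted p under 0.05 (limma, Benjamini-Hochberg). The ratio was lower at 360 min for 924 genes (4.83%) and higher for 490 (2.56%), so that 65.3% of the calls were lower. With no normalization within arrays the median over all genes shifted to -0.14 and 87% of 2703 calls were lower. Large differences were mostly of the first kind, with 171 genes lower by a factor of 2 or more and 54 higher, and 28 genes lower by a factor of 4 or more and 1 higher. Called differences ran between -3.64 and 2.0, with a median of -0.51 for those lower and 0.50 for those higher, and the median over all genes tested was 0.005. In fits that left out 1 replicate, the time with 1 replicate left was given the spread of the other time. Far fewer genes then passed without a 30 min replicate, and more without a 360 min replicate. In each of these fits 0 of the 1414 calls had the opposite sign. Calls given below as lost without a 30 min replicate were thus judged by the spread at 360 min and the prior.

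**Figure D1:**
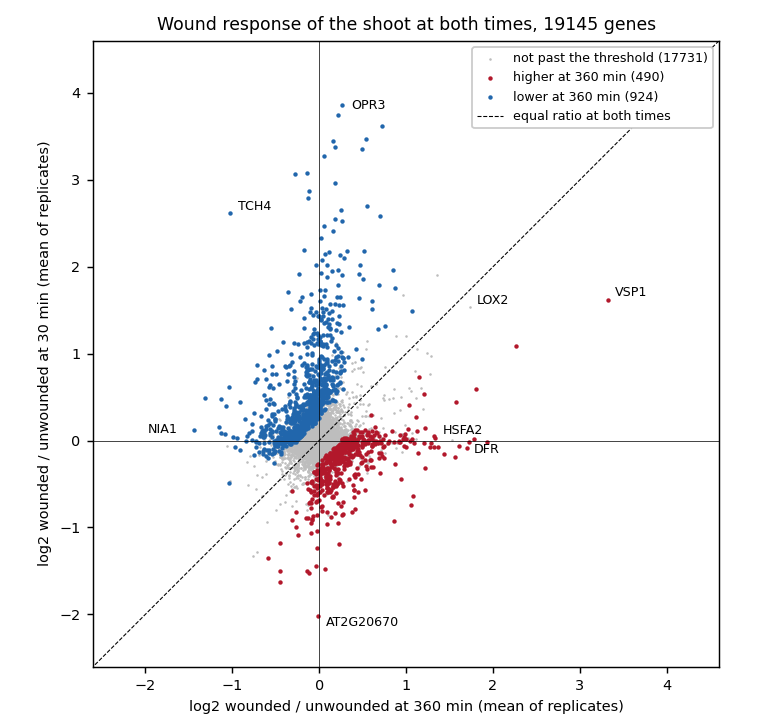
Each point is 1 of 19145 genes, at its log2 ratio of wounded over unwounded shoots at 360 min (horizontal axis) and at 30 min (vertical axis), means of the replicates with a value. Genes lower at 360 min (blue, 924) form a wing to the left with NIA1 and a column upwards that ends at OPR3, while genes higher at 360 min (red, 490) form a row to the right with DFR and HSFA2 and a tail downwards that ends at AT2G20670.

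At 360 min alone the response of 7.3% of genes passed the threshold (3.08% above 0 and 4.22% below 0), and at 30 min alone that of 6.69% (4.52% above 0 and 2.16% below 0). The same sign of the difference came from several combinations of early and late response. Among the 924 genes with a lower ratio at 360 min, 558 had passed the threshold above 0 at 30 min: 454 of these did not pass at 360 min, 39 were still above 0 there past the threshold, and 65 were below 0 past it. A further 322 did not pass at 30 min and were below 0 past the threshold at 360 min. Among the 490 genes with a higher ratio at 360 min, 207 had passed the threshold below 0 at 30 min: 162 of these did not pass at 360 min and 37 were above 0 past it. A further 223 did not pass at 30 min and were above 0 past the threshold at 360 min. These counts use the arrays of the contrast itself and describe its calls. Levels in the single channels were set side by side across arrays, as a description without a test. For 658 of the 924 lower genes (71.2%) the level in wounded shoots moved more between the times than the level in unwounded shoots, and for 266 the unwounded level moved more. For 286 of the 490 higher genes (58.4%) the wounded level moved more, and for 204 the unwounded level did, while over all 19145 genes the wounded level moved more for 52.8%.

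Gene lists are set beside all genes, of which 4.83% were lower and 2.56% higher at 360 min. Their members were chosen with earlier results of these data known, so list shares and medians are descriptions and no test. Replicates of the times did not overlap for 52.9% of the 17444 genes with a value in every replicate. Non-overlap, given below for single genes, therefore does not by itself mark a difference. For genes named for the highest and lowest differences it was also a condition of the choice, and adds no support there. Jasmonate synthesis held several of the lowest differences. OPR3, the peroxisomal reductase of the jasmonate precursor, had log2 ratios of 0.31 and 0.23 at 360 min, against 4.02 and 3.7 at 30 min. Both 360 min replicates stood far below both 30 min replicates, and the difference was -3.59 ± 0.11 (SE, adjusted p = 0.000204), a 12.1-fold lower ratio. LOX3, a lipoxygenase that makes the fatty acid hydroperoxide, had log2 ratios of 0.11 and 0.003 at 360 min, against 3.13 and 3.41 at 30 min. At the later time the values were close to 0, with a difference of -3.21 ± 0.10 (SE, adjusted p = 0.000213). OPCL1, which activates the reductase product for the shortening of its side chain, had log2 ratios of 0.47 and 0.51 at 360 min, against 3.37 and 3.33 at 30 min. Here the 360 min replicates stayed above 0 and well below those of 30 min, at a difference of -2.86 ± 0.055 (SE, adjusted p = 6.61e-05). AOS, the allene oxide synthase, had log2 ratios of 0.90 and 0.80 at 360 min, against 2.0 and 1.93 at 30 min. Its replicates did not overlap either, although the later ratio was still 1.8-fold, and the difference was -1.12 ± 0.063 (SE, adjusted p = 0.00119).

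LOX2, the abundant lipoxygenase of leaf chloroplasts, had no called difference. Its log2 ratios were 1.87 and 1.59 at 360 min, against 1.46 and 1.61 at 30 min, so that the replicates of the times overlapped and all lay above 1.4. The difference was 0.20 ± 0.11 (SE, 95% interval -0.073 to 0.46, adjusted p = 0.377), and it turned slightly below 0 when arrays were not normalized or when log ratios were scaled between arrays. The single-channel levels of LOX2 were higher at 360 min by 0.87 in wounded and by 0.67 in unwounded shoots. Of the 15 synthesis genes tested, 7 were lower at 360 min (LOX3, LOX4, AOS, AOC2, AOC3, OPR3 and OPCL1), 0 were higher, and the median difference was -0.20 against 0.005 for all genes. The 8 others ran between -0.20 for ACX1, an enzyme of the beta-oxidation steps, and 0.25 for AIM1, of the same steps. Without either replicate of 30 min 5 of the 7 passed.

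Genes that remove or modify jasmonate were lower at 360 min for 6 of 10 tested, higher for 0, with a median of -0.41. CYP94C1, a cytochrome P450 that oxidises the active conjugate, had a log2 ratio of -0.28 in the only replicate with a value at 360 min, against 2.65 and 3.48 at 30 min. The remaining 360 min replicate, the other being left out for an outlier spot on 1 of its arrays, lay far below both of 30 min. Its difference was -3.35 ± 0.34 (SE, adjusted p = 0.0119), with a spread taken from the 30 min replicates and the prior alone, and it missed the threshold in the authors' log ratios (-4.81, adjusted p = 0.076). IAR3, an amidohydrolase that splits amino acid conjugates, had log2 ratios of 0.025 and 0.02 at 360 min, against 2.32 and 2.34 at 30 min. The replicates of each time were close together and the later ones near 0, with a difference of -2.31 ± 0.052 (SE, adjusted p = 7.94e-05). AT5G05600, annotated as a 2-oxoglutarate-dependent dioxygenase, had log2 ratios of 0.083 and 0.091 at 360 min, against 1.87 and 1.88 at 30 min, which again did not overlap, at a difference of -1.79 ± 0.052 (SE, adjusted p = 0.000182). Over the alternative settings the difference ran between -3.05 and -1.83 for IAR3 and between -2.8 and -1.28 for AT5G05600, wider than these SE. JAR1, the enzyme that joins jasmonate to isoleucine, had a smaller difference of -0.46 ± 0.085 (SE, adjusted p = 0.0348). Of the 6 calls, 4 remained without 30 min replicate 1 and 3 without 30 min replicate 2, JAR1 in neither.

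The signalling list was lower at 360 min for 11 of 19 tested genes, higher for 0, with a median of -0.81. MYC2, the central transcription factor, had log2 ratios of 0.75 and 0.70 at 360 min, against 3.74 and 3.49 at 30 min. The later replicates were well below the earlier ones yet above 0, and the difference was -2.89 ± 0.093 (SE, adjusted p = 0.000213). JAZ9 (TIFY7), a repressor gene, had log2 ratios of 0.43 and -0.009 at 360 min, against 4.1 and 3.4 at 30 min, with no overlap and a difference of -3.53 ± 0.25 (SE, adjusted p = 0.00239). JAZ6, another repressor gene, had log2 ratios of 0.50 and -0.19 at 360 min, against 3.58 and 3.32 at 30 min. Its later replicates lay on both sides of 0, its difference was -3.29 ± 0.23 (SE, adjusted p = 0.00221), and the call was lost without either replicate of 30 min. JAZ1 had log2 ratios of 0.46 and 0.62 at 360 min, against 3.32 and 3.61 at 30 min, separate between times and all above 0, with a difference of -2.92 ± 0.11 (SE, adjusted p = 0.000378). AIB (JAM1), a bHLH factor that competes with MYC2, had log2 ratios of 0.43 and 0.22 at 360 min, against 2.2 and 2.15 at 30 min, and a difference of -1.85 ± 0.083 (SE, adjusted p = 0.00063).

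JAZ10, a repressor gene often read as a jasmonate marker, had log2 ratios of 0.51 and -0.12 at 360 min, against 0.97 and 1.27 at 30 min. The later replicates disagreed, 1 above and 1 below 0, and both lay under the earlier ones. The difference of -0.92 ± 0.21 (SE, 95% interval -1.45 to -0.39) had an adjusted p of 0.0662. The difference was -1.23 without 360 min replicate 1 and -0.61 without 360 min replicate 2. It passed in 7 of 20 alternative settings. With the wounded RNA in Cy5 alone it passed (-1.24, adjusted p = 0.000321). In the authors' log ratios (-1.21, adjusted p = 0.078) and with the wounded RNA in Cy3 alone it missed the threshold. Dye-swap arrays of JAZ10 disagreed: Cy5 and Cy3 read 1.545 and 0.388 in 30 min replicate 1, and 0.141 and 0.88 in 360 min replicate 1. Among the other JAZ genes tested, JAZ2, JAZ3, JAZ5 and JAZ12 were lower at 360 min with differences between -1.82 and -0.64, and JAZ4 had -0.079. The receptor gene COI1 (0.059), the adaptor gene NINJA (-0.12), the co-repressor gene TPL (0.017) and the MYC2 relatives MYC3 (-0.18) and MYC4 (-0.089) did not pass the threshold. Without either replicate of 30 min 6 of the 11 calls remained, among them MYC2, JAZ9 and JAZ1.

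**Figure D2:**
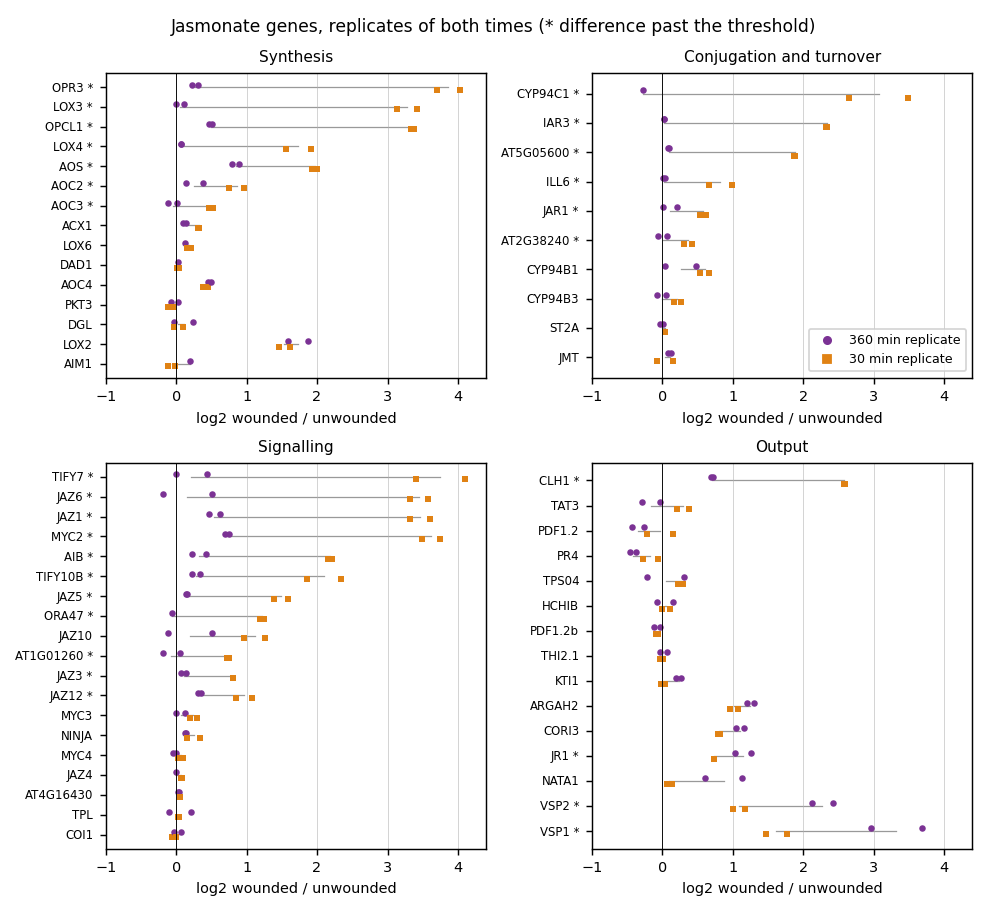
Log2 ratios of wounded over unwounded shoots in the 2 replicates of 360 min (purple circles) and of 30 min (orange squares) for the tested genes of 4 jasmonate lists, ordered by the difference, with a line between the means of both times. Synthesis, turnover and signalling genes at the top of their panels lie far right at 30 min and near 0 at 360 min, whereas VSP1 and VSP2 at the bottom of the output panel lie further right at 360 min.

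Among genes read as outputs of jasmonate 3 of 15 tested were higher at 360 min, 1 was lower, and the median was 0.034, which turned to -0.14 when arrays were not normalized. VSP1, a vegetative storage protein with phosphatase activity, had log2 ratios of 2.96 and 3.68 at 360 min, against 1.47 and 1.77 at 30 min. Every later replicate exceeded every earlier one, which was a condition for naming it among the highest differences. The ratio was 9.98-fold at 360 min, against 3.07-fold at 30 min, a difference of 1.7 ± 0.24 (SE, adjusted p = 0.0162). VSP2, its close paralog, had log2 ratios of 2.12 and 2.42 at 360 min, against 1.17 and 1.0 at 30 min, also without overlap, and a difference of 1.18 ± 0.12 (SE, adjusted p = 0.00552). The probes of VSP1 and VSP2 may take up some of each other's signal. Both calls were lost without either replicate of 30 min, and that of VSP1 in the authors' log ratios (1.15, adjusted p = 0.101). With log ratios scaled between arrays VSP1 (1.31, adjusted p = 0.203) and VSP2 (0.91, adjusted p = 0.13) both missed the threshold, and the list held 0 higher and 1 lower genes.

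JR1, a lectin-like protein gene, had a difference of 0.42 ± 0.086 (SE, adjusted p = 0.048). CLH1, a chlorophyllase, went the other way: its log2 ratios were 0.72 and 0.68 at 360 min, against 2.59 and 2.57 at 30 min, with tight replicates at each time, and its difference was -1.88 ± 0.053 (SE, adjusted p = 0.000182). ARGAH2, an arginase of defence, had log2 ratios of 1.2 and 1.3 at 360 min, against 0.95 and 1.07 at 30 min. Replicates of 360 min were slightly above those of 30 min, and the difference of 0.23 ± 0.069 (SE, 95% interval 0.06 to 0.41) did not pass (adjusted p = 0.122). The defensin gene PDF1.2 (-0.31), the thionin gene THI2.1 (0.034) and the chitinase gene HCHIB (-0.01) did not pass. Of the 4 calls in the list, CLH1 alone remained without either replicate of 30 min, and the list held 5 higher and 2 lower genes without 360 min replicate 2.

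Transcription factors of general stress signalling were mostly on the lower side of the contrast. Among 19 ERF and DREB factors, which bind ethylene- and dehydration-response elements, 8 were lower at 360 min and 1 was higher (median -0.37). ERF-1 had log2 ratios of 0.43 and -0.078 at 360 min, against 3.6 and 3.14 at 30 min. Its later replicates straddled 0 far below the earlier ones, and the difference was -3.2 ± 0.21 (SE, adjusted p = 0.00187). ERF2 had log2 ratios of 0.28 and -0.18 at 360 min, against 2.64 and 2.28 at 30 min, and a difference of -2.41 ± 0.18 (SE, adjusted p = 0.00266), a call lost without 30 min replicate 1. RRTF1, a redox-responsive factor, had log2 ratios of 0.029 and -0.003 at 360 min, against 1.76 and 1.7 at 30 min, tight and separate, and a difference of -1.72 ± 0.056 (SE, adjusted p = 0.000213). The single gene that was higher, DREB2A of drought and heat responses, had log2 ratios of 0.75 and 1.24 at 360 min, against 0.099 and 0.063 at 30 min, and a difference of 0.91 ± 0.15 (SE, adjusted p = 0.0278). The CBF genes of the cold response had differences of -0.12, 0.23 and 0.34, none past the threshold. Calls numbered 4 without 30 min replicate 1 and 6 without 30 min replicate 2, all lower.

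WRKY factors, regulators of defence genes, were lower at 360 min for 5 of 10 tested and higher for 0 (median -0.33). WRKY18 had log2 ratios of -0.085 and -0.17 at 360 min, against 2.9 and 2.69 at 30 min. Values just below 0 in both later replicates faced a strong response in both earlier ones, and the difference was -2.92 ± 0.085 (SE, adjusted p = 0.000182). WRKY15 had log2 ratios of -0.021 and -0.052 at 360 min, against 0.56 and 0.55 at 30 min, and a difference of -0.59 ± 0.053 (SE, adjusted p = 0.00447). WRKY46 had log2 ratios of 0.069 and 0.11 at 360 min, against 0.56 and 0.49 at 30 min, and a difference of -0.44 ± 0.058 (SE, adjusted p = 0.0142), which missed the threshold in the authors' log ratios (-0.83, adjusted p = 0.118). WRKY18 was the single call of the list without 30 min replicate 1 and without 30 min replicate 2.

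Among 14 zinc finger, NAC and MYB factors of stress responses 5 were lower at 360 min and 0 were higher (median -0.26). MYBR1 (MYB44), a MYB factor of stress responses, had log2 ratios of -0.11 and -0.12 at 360 min, against 2.84 and 2.9 at 30 min. The replicates of each time nearly coincided, and the difference was -2.98 ± 0.054 (SE, adjusted p = 6.61e-05). MYB73 had log2 ratios of -0.074 and -0.32 at 360 min, against 1.76 and 1.55 at 30 min, with the later replicates below 0, and a difference of -1.85 ± 0.11 (SE, adjusted p = 0.00133). NAC019, a factor downstream of MYC2, had log2 ratios of 0.089 and 0.12 at 360 min, against 1.4 and 1.22 at 30 min, and a difference of -1.21 ± 0.076 (SE, adjusted p = 0.00161). ZAT12 (RHL41), a zinc finger factor of light and oxidative stress, had log2 ratios of 0.08 and 0.11 at 360 min, against 0.34 and 0.35 at 30 min. Its replicates did not overlap, yet the difference of -0.25 ± 0.053 (SE) was short of the threshold (adjusted p = 0.0514). Without either replicate of 30 min 4 of the 5 calls remained, and ZAT10, a zinc finger repressor (-2.15), was lost.

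Genes of calcium signalling and touch were lower at 360 min for 7 of 15 tested and higher for 0 (median -0.52). TCH4, a cell wall xyloglucan enzyme known for its induction by touch, had the lowest difference of all genes with these settings, although CYP94C1 was lower in the authors' log ratios (-4.81, adjusted p = 0.076). The log2 ratios of TCH4 were -0.97 and -1.07 at 360 min, against 2.7 and 2.54 at 30 min. In every replicate the ratio was below 0 at 360 min and above 0 at 30 min, and the difference was -3.64 ± 0.077 (SE, adjusted p = 6.8e-05), a 12.4-fold lower ratio. At 360 min relative to 30 min the log2 level of TCH4 differed by -3.31 in wounded and by 0.33 in unwounded shoots. CML38, a calmodulin-like protein, had log2 ratios of 0.16 and 0.28 at 360 min, against 1.86 and 1.72 at 30 min, and a difference of -1.56 ± 0.076 (SE, adjusted p = 0.000798). Over the alternative settings that difference ran between -2.565 and -1.098. TCH2, another calmodulin-like protein named for touch, had log2 ratios of -0.29 and -0.20 at 360 min, against 1.18 and 1.05 at 30 min. Like TCH4 it was below 0 in both later and above 0 in both earlier replicates, with a difference of -1.36 ± 0.071 (SE, adjusted p = 0.000894). Of the 7 calls, 4 remained without 30 min replicate 1 and 3 without 30 min replicate 2. CML39, among the 7, was not well above background in wounded shoots at 360 min or in unwounded shoots at 30 min on any array, so that no size is given for it.

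AT5G56980, annotated as a putative protein, had 1 of the lowest differences outside these lists. Its log2 ratios were -0.13 and -0.15 at 360 min, against 3.06 and 3.11 at 30 min. Both times had tight replicates, the later just below 0 and the earlier far above it, and the difference was -3.22 ± 0.055 (SE, adjusted p = 6.61e-05). Its log2 level differed between the times by -4.07 in wounded and by -0.84 in unwounded shoots.

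**Figure D3:**
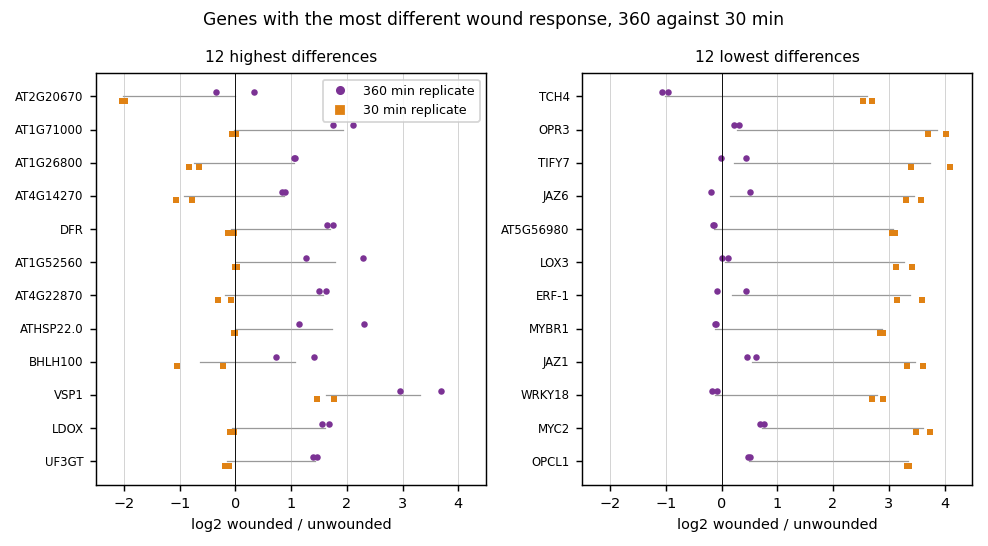
Log2 ratios of wounded over unwounded shoots in both replicates of 360 min (purple circles) and of 30 min (orange squares), with a line between the means, for the 12 genes with the highest (left) and the 12 with the lowest (right) difference among called genes with values in all 4 replicates and no overlap of the times. Among the lowest, late ratios lie near 0 or slightly above it, with TCH4 at -1.02, against early ratios far to the right. Among the highest, late ratios lie mostly to the right of 0 and early ones near or left of it, with AT2G20670 at -2.01 early; neither RNA of AT1G52560 was well above background at 30 min, so its squares carry no reading.

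Indole glucosinolates are sulphur-containing defence compounds made from tryptophan, and this pathway had the lowest median of all lists. Of its 15 tested genes 11 were lower at 360 min, 0 were higher, and the median was -1.16. SOT16, the sulfotransferase of the last core step, had log2 ratios of -0.18 and -0.17 at 360 min, against 2.24 and 2.14 at 30 min. The ratio was below 0 in both later and above 0 in both earlier replicates, with a difference of -2.37 ± 0.06 (SE, adjusted p = 0.000128). SUR1, the C-S lyase upstream, had log2 ratios of -0.28 and -0.38 at 360 min, against 1.0 and 1.0 at 30 min, again of opposite sign, and a difference of -1.33 ± 0.06 (SE, adjusted p = 0.00063). ASA1, the first committed enzyme of tryptophan synthesis, had log2 ratios of -0.19 and -0.16 at 360 min, against 1.08 and 1.17 at 30 min, and a difference of -1.3 ± 0.059 (SE, adjusted p = 0.00063). The remaining called genes were the factor gene MYB34, the P450 genes CYP79B2, CYP79B3 and CYP83B1, GGP1, UGT74B1, TSB1 and TSB2, with differences between -1.84 and -0.44. Those that did not pass were PEN2 (-0.25), TSA1 (-0.22), CYP81F2 (-0.15) and the camalexin gene PAD3 (0.009). The level of SOT16 differed between the times by -1.66 in wounded and 0.71 in unwounded shoots, and the list's median by -0.79 in wounded and 0.32 in unwounded shoots. Without either replicate of 30 min 7 of the 11 calls remained.

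Aliphatic glucosinolates, made from methionine, were mixed, with 4 of 17 tested genes lower at 360 min, 2 higher and a median of 0.007, which changed sign in 6 alternative settings. SOT17, a sulfotransferase, had log2 ratios of -0.07 and -0.13 at 360 min, against 1.2 and 1.04 at 30 min, and a difference of -1.22 ± 0.072 (SE, adjusted p = 0.00133). FMO GS-OX1, which oxidises the side chain, had log2 ratios of -0.06 and -0.14 at 360 min, against 0.88 and 0.76 at 30 min. These were separate as well, and the difference was -0.92 ± 0.067 (SE, adjusted p = 0.00245), lost without 30 min replicate 1. MAM1, the enzyme that lengthens the methionine chain, had the opposite sign: its log2 ratios were 0.64 and 0.58 at 360 min, against -0.11 and -0.011 at 30 min, with a difference of 0.67 ± 0.062 (SE, adjusted p = 0.00499), a call lost without either replicate of 30 min. The list held 1 call without 30 min replicate 1 and 2 without 30 min replicate 2.

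Heat shock genes had the highest median difference of all lists, 0.90, with 8 of 20 tested higher at 360 min and 0 lower. HSFA2, a heat shock factor that sustains the response, had log2 ratios of 1.46 and 1.2 at 360 min, against 0.037 and 0.025 at 30 min. Both later replicates were above 1 and both earlier ones near 0, and the difference was 1.3 ± 0.094 (SE, adjusted p = 0.00243). MBF1C, a co-activator of heat responses, had log2 ratios of 1.1 and 1.09 at 360 min, against -0.063 and 0.016 at 30 min, and a difference of 1.12 ± 0.057 (SE, adjusted p = 0.000876). HSFA7A had log2 ratios of 1.07 and 0.94 at 360 min, against -0.11 and -0.042 at 30 min, which did not overlap, and a difference of 1.08 ± 0.068 (SE, adjusted p = 0.00161). AT1G71000, outside the list and annotated as a DnaJ-type heat shock protein, had log2 ratios of 1.75 and 2.1 at 360 min, against -0.054 and 0.013 at 30 min. The later replicates were far above the earlier ones, and the difference was 1.95 ± 0.12 (SE, adjusted p = 0.0014), a call lost without 30 min replicate 1.

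The unwounded shoots moved as well. At 360 min relative to 30 min the log2 level of HSFA2 was higher by 4.71 in wounded and by 3.4 in unwounded shoots. That of MBF1C was higher by 4.89 in wounded and 3.77 in unwounded shoots, and the median over the list was 3.14 in wounded and 2.16 in unwounded shoots. The part of this common change in the called differences was not tested. The small chaperone gene ATHSP22.0 had log2 ratios of 2.31 and 1.14 at 360 min, against -0.011 and -0.02 at 30 min. Both its RNAs were well above background on 2 of 4 arrays at 30 min, so that the early ratios rest on dim signals. The later replicates differed by more than 1, and the difference of 1.74 ± 0.35 (SE, adjusted p = 0.0466) was lost without either replicate of 30 min and in the authors' log ratios (2.18, adjusted p = 0.0796). AT1G52560, annotated as a chloroplast small heat shock protein, had log2 ratios of 2.29 and 1.26 at 360 min, and neither RNA was well above background on any 30 min array, so that no ratio is read there, although it is 1 of the 8 calls. Small heat shock genes resemble each other and their probes may share signal. MBF1C and HSFA7A were the 2 calls that remained without either replicate of 30 min, HSFA2 being lost, and the list held 15 calls without 360 min replicate 1 and 18 without 360 min replicate 2, all higher.

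Anthocyanins are red pigments made at the end of the flavonoid pathway, and of 23 genes tested 9 were higher, 0 were lower, and the median was 0.32. DFR, the reductase at the entry to the anthocyanin branch, had log2 ratios of 1.65 and 1.75 at 360 min, against -0.14 and -0.029 at 30 min. Both later replicates were above 1.6 and both earlier ones just below 0, with a difference of 1.78 ± 0.068 (SE, adjusted p = 0.000384). LDOX, the dioxygenase after it, had log2 ratios of 1.55 and 1.68 at 360 min, against -0.10 and -0.025 at 30 min, and a difference of 1.68 ± 0.069 (SE, adjusted p = 0.000521). AT4G22870, outside the list, annotated as a putative LDOX and open to signal shared with it, had log2 ratios of 1.5 and 1.63 at 360 min, against -0.31 and -0.072 at 30 min, and a difference of 1.76 ± 0.095 (SE, adjusted p = 0.00102). UF3GT, a glycosyltransferase of anthocyanins, had log2 ratios of 1.4 and 1.46 at 360 min, against -0.19 and -0.12 at 30 min, with no overlap and a difference of 1.58 ± 0.059 (SE, adjusted p = 0.000378). In DFR and LDOX both RNAs, and in UF3GT the wounded RNA, were well above background on 2 of 4 arrays at 30 min, so that their early ratios rest on dim signals. AT4G22870, LDOX, DFR and UF3GT kept their calls whichever replicate was left out.

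The earlier steps of that pathway and its regulators were mixed. Chalcone synthase (CHS, 0.56), chalcone isomerase (CHI, 0.34) and the phenylalanine ammonia-lyases PAL1 (-0.10) and PAL2 (-0.23) did not pass, while F3H (0.56) and TT7 (0.51) did. PAP1, a MYB factor that activates the late genes, had log2 ratios of 1.42 and 1.16 at 360 min, against 0.95 and 1.0 at 30 min. It was above 0 in all replicates, without overlap, and the difference of 0.32 ± 0.096 (SE, 95% interval 0.08 to 0.56, adjusted p = 0.126) did not pass and came to -0.003 with an offset scaled to array brightness. Without 360 min replicate 2 it was 0.45 and passed (adjusted p = 0.0146). MYBL2, a repressor of the pathway, had log2 ratios of 0.12 and -0.17 at 360 min, against -0.85 and -1.23 at 30 min, and a difference of 1.02 ± 0.15 (SE, adjusted p = 0.019). Without either replicate of 30 min 4 of the 9 calls remained.

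Photosynthesis genes were higher at 360 min for 8 of 25 tested and lower for 0, with a median of 0.22. CAB2, a light-harvesting protein of photosystem II, had log2 ratios of 0.56 and 0.81 at 360 min, against -0.19 and -0.10 at 30 min. Both later replicates were above 0 and both earlier ones below it, and the difference was 0.83 ± 0.094 (SE, adjusted p = 0.00861). The 2 arrays of 30 min replicate 2 disagreed in sign, at -0.46 with the wounded RNA in Cy5 and 0.25 with it in Cy3. With the wounded RNA in Cy3 alone the difference was 0.50 and missed the threshold (limma, adjusted p = 0.195). LHCB4.2, a minor antenna protein, had log2 ratios of 0.45 and 0.42 at 360 min, against -0.062 and -0.17 at 30 min, and a difference of 0.55 ± 0.063 (SE, adjusted p = 0.00861). LHCB2.3 had a log2 ratio of 0.75 in the only replicate with a value at 360 min, against -0.12 and -0.27 at 30 min, while the usable array of the 360 min replicate left out read 0.20. Its difference was 0.95 ± 0.092 (SE, adjusted p = 0.0107), with a spread taken from the 30 min replicates and the prior alone, and it missed the threshold in the authors' log ratios (0.97, adjusted p = 0.051). The log2 levels of all 3 were lower at 360 min in both kinds of shoots, and that of LHCB2.3 differed by -2.84 in wounded and -3.62 in unwounded shoots. Rubisco activase RCA (-0.30) and the Rubisco subunit gene RBCS2B (-0.22) had negative differences that did not pass. Genes of the LHCB1 group are near-identical, and their probes may share signal. The list held 0 calls without 30 min replicate 1 and 0 without 30 min replicate 2, and 1 in the authors' log ratios.

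AT2G20670, a gene of the sugar-starvation list that the files annotate as an expressed protein, had the highest difference with these settings. In the authors' log ratios it had 2.23 and BHLH100 was higher at 2.71. The log2 ratios of AT2G20670 were 0.32 and -0.35 at 360 min, against -2.04 and -1.99 at 30 min. The later replicates lay on either side of 0 and both earlier ones near -2, and the difference was 2.0 ± 0.21 (SE, adjusted p = 0.00671). Its log2 level differed between the times by 0.095 in wounded and by -1.91 in unwounded shoots, so that the unwounded RNA moved more. Of 20 sugar-starvation genes tested 8 were higher at 360 min, 0 were lower, and the median was 0.49. The kelch-repeat F-box genes AT1G80440 (KMD1) and AT3G59940 (KMD4), whose products mark phenylalanine ammonia-lyases and cytokinin regulators for degradation, were 2 of the calls. KMD1 had log2 ratios of -0.36 and -0.54 at 360 min, against -1.42 and -1.59 at 30 min, at a difference of 1.06 ± 0.09 (SE, adjusted p = 0.00402). KMD4 had log2 ratios of -0.26 and 0.028 at 360 min, against -1.38 and -1.66 at 30 min, at a difference of 1.4 ± 0.13 (SE, adjusted p = 0.00503). In both genes the later ratios were much nearer to 0 than the earlier ones. The log2 level of KMD1 differed between the times by -0.12 in wounded and by -1.17 in unwounded shoots. For KMD4 it differed by 0.84 in wounded and by -0.56 in unwounded shoots. AT1G23390, another kelch-repeat F-box gene, had log2 ratios of -0.34 and -0.55 at 360 min, against -1.5 and -1.75 at 30 min, and a difference of 1.18 ± 0.11 (SE, adjusted p = 0.00515). Its level differed between the times by -0.26 in wounded and by -1.44 in unwounded shoots. The list's median level differed by -0.37 in wounded and by -0.69 in unwounded shoots. All 8 calls of the list were lost without either replicate of 30 min.

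Nitrate is reduced in leaves by nitrate and nitrite reductase before it enters amino acids. Of 25 nitrate genes tested 6 were lower at 360 min, 1 was higher, and the median was -0.20. NIA1, a nitrate reductase, had log2 ratios of -1.55 and -1.32 at 360 min, against 0.28 and -0.024 at 30 min. The later replicates lay below -1.3 and the earlier ones around 0, with a difference of -1.56 ± 0.12 (SE, adjusted p = 0.00335). NIA2, the main nitrate reductase of leaves, had log2 ratios of -1.22 and -0.96 at 360 min, against 0.18 and -0.022 at 30 min, and a difference of -1.16 ± 0.11 (SE, adjusted p = 0.00515). Levels of NIA1 differed between the times by -2.46 in wounded and -0.89 in unwounded shoots. Also lower were the nitrite reductase gene NIR1 (-0.89), UPM1 of the sirohaem cofactor (-0.68), G6PD3 (-0.49) and AT1G68670 (-0.43). LBD37, a repressor of nitrate responses, had log2 ratios of 0.081 and -0.25 at 360 min, against -0.97 and -0.83 at 30 min, lower early than late, and a difference of 0.81 ± 0.12 (SE, adjusted p = 0.0182) that missed the threshold in the authors' log ratios (0.97, adjusted p = 0.0509). The transporter gene NRT1.1 had -0.57 and NRT2.1 had 0.035, neither past the threshold. Of the 7 calls, NIA1 alone kept its call without either replicate of 30 min, and 9 genes were lower and 2 higher without 360 min replicate 2.

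**Figure D4:**
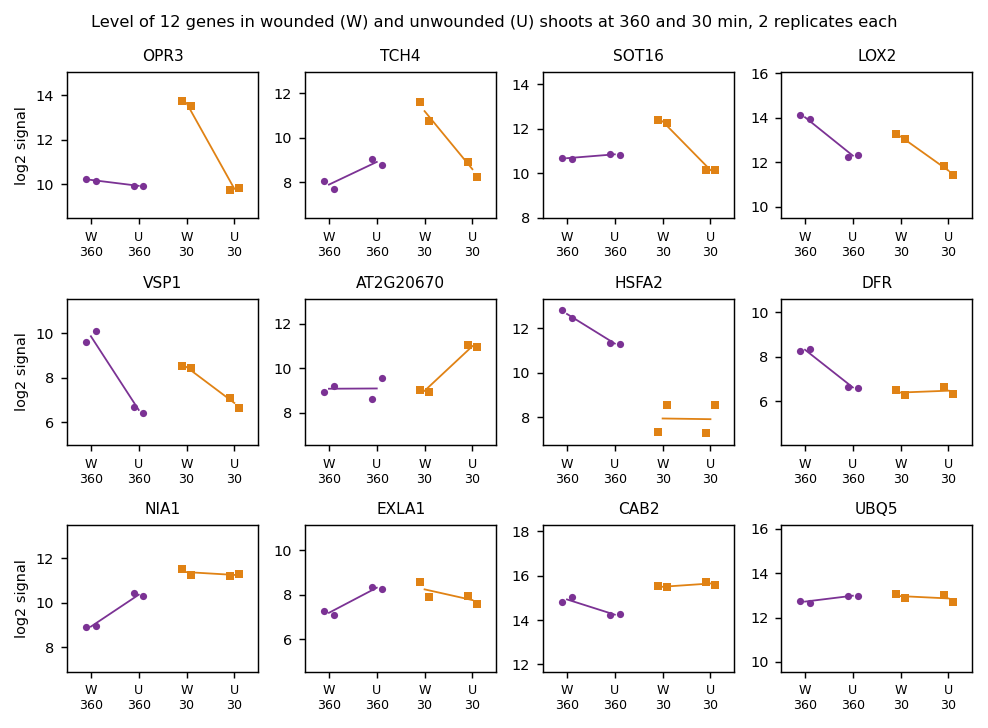
Log2 signal of 12 genes in the 2 replicates of wounded (W) and unwounded (U) shoots at 360 min (purple circles) and 30 min (orange squares), with lines between the means of W and U and axes of equal span. Wounded levels of OPR3, TCH4 and SOT16 are high at 30 min, the unwounded level of AT2G20670 moved more than its wounded level, and SOT16, HSFA2, NIA1 and CAB2 have levels that differ between the times in both kinds of shoots.

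Cell wall genes of growth were lower at 360 min for 10 of 30 expansin and xyloglucan enzyme (XTH) genes tested and higher for 1, with a median of -0.11. EXLA1, an expansin-like protein, had log2 ratios of -1.08 and -1.18 at 360 min, against 0.63 and 0.34 at 30 min. A ratio below -1 in both later replicates faced one above 0 in both earlier ones, and the difference was -1.61 ± 0.11 (SE, adjusted p = 0.0018). XTH24 had log2 ratios of -0.77 and -1.31 at 360 min, against 0.44 and 0.80 at 30 min, and a difference of -1.66 ± 0.20 (SE, adjusted p = 0.0107). Its log2 level differed between the times by -0.26 in wounded and by 1.4 in unwounded shoots. XTH16 had log2 ratios of -0.50 and -0.68 at 360 min, against 0.26 and 0.20 at 30 min, and a difference of -0.82 ± 0.077 (SE, adjusted p = 0.00503). XTH4, another xyloglucan enzyme, had log2 ratios of -0.66 and -0.90 at 360 min, against 0.072 and 0.15 at 30 min, negative late and around 0 early, and a difference of -0.89 ± 0.093 (SE, adjusted p = 0.00684). EXPA1 (-0.30) and EXPA8 (-0.029), below 0 at both times, did not differ past the threshold, and the sign of EXPA8 turned in 6 settings. The list held 1 call, EXLA1, without either replicate of 30 min.

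FLA9, an arabinogalactan protein of the cell surface, and EXL5, an EXORDIUM-like protein of growth, had the same late direction. FLA9 had log2 ratios of -0.98 and -1.16 at 360 min, against 0.40 in the only replicate with a value at 30 min, with a difference of -1.47 ± 0.10 (SE, adjusted p = 0.00495), whose spread comes from the 360 min replicates and the prior alone. EXL5 had a log2 ratio of -1.16 in the only replicate with a value at 360 min, against 0.14 and 0.18 at 30 min, while the usable array of the 360 min replicate left out read -0.73. Its difference was -1.32 ± 0.071 (SE, adjusted p = 0.00259), with a spread from the 30 min replicates and the prior alone, and with outlier spots kept, which restores that replicate, it came to -0.97 and missed the threshold (adjusted p = 0.0825). AT5G20790, annotated as a putative protein, had log2 ratios of -0.53 and -1.29 at 360 min, against 0.23 and 0.64 at 30 min. Its later replicates differed from each other by more than 0.7, and the difference of -1.35 ± 0.26 (SE, adjusted p = 0.041) was lost without either replicate of 30 min, as was that of EXL5. Log2 levels at 360 min relative to 30 min differed by -0.89 in wounded and 0.64 in unwounded shoots for FLA9, by 0.33 in wounded and 1.3 in unwounded shoots for EXL5, and by -0.017 in wounded and 1.33 in unwounded shoots for AT5G20790.

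Auxin is a growth hormone that acts through short-lived repressors of the Aux/IAA family. Of 21 auxin-related genes tested 4 were higher at 360 min and 2 lower (median 0.16). ATAUX2-11 (IAA4), an early auxin-induced repressor gene, had log2 ratios of -0.066 and -0.085 at 360 min, against -0.82 and -0.92 at 30 min. Both later replicates were near 0 and both earlier ones well below it, and the difference was 0.79 ± 0.059 (SE, adjusted p = 0.0026). HAT2, a homeobox factor induced by auxin, had a log2 ratio of 0.41 in the only replicate with a value at 360 min, against -0.40 and -0.44 at 30 min. Its difference of 0.83 ± 0.072 (SE, adjusted p = 0.00798) takes its spread from the 30 min replicates and the prior alone. IAA1 had log2 ratios of 0.10 and 0.12 at 360 min, against -0.27 and -0.41 at 30 min, and a difference of 0.46 ± 0.067 (SE, adjusted p = 0.0182). IAA6, which went the other way, had log2 ratios of 0.043 and -0.32 at 360 min, against 0.94 and 0.68 at 30 min, and a difference of -0.95 ± 0.14 (SE, adjusted p = 0.0193). ATAUX2-11 was the 1 call that remained without 30 min replicate 1, and 0 remained without 30 min replicate 2.

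The 26 abscisic acid and dehydration genes tested had a median difference of 0.24. Between same-numbered replicates, which were not paired, the median was 0.034 for replicate 1 and 0.54 for replicate 2. Among these genes 1 was called, higher at 360 min (3.85%, against 2.56% of all genes). That gene was ABF3, a bZIP factor of the abscisic acid response, with log2 ratios of 0.36 and 0.74 at 360 min, against -0.26 and -0.39 at 30 min, and a difference of 0.88 ± 0.13 (SE, adjusted p = 0.0195). Its call was lost without either replicate of 30 min, and 8 genes of the list were higher without 360 min replicate 1. RD20, a drought-induced lipid-body protein, had log2 ratios of 0.75 and 1.96 at 360 min, against 1.84 and 1.96 at 30 min. Its replicates overlapped between the times, and the difference of -0.54 ± 0.37 (SE, 95% interval -1.46 to 0.37, adjusted p = 0.47) came to 0.061 without 360 min replicate 1 and to -1.15 without 360 min replicate 2, where it passed (adjusted p = 0.000822).

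Of 11 ethylene genes tested 3 were lower at 360 min and 0 were higher (median -0.066), among them ACS6, which makes the ethylene precursor, at -0.69 ± 0.078 (SE, adjusted p = 0.00861), and EBF1, an F-box protein that removes the factor EIN3, at -0.51 ± 0.094 (SE, adjusted p = 0.0356). ACS6 had log2 ratios of 0.032 and 0.11 at 360 min, against 0.68 and 0.86 at 30 min. The ratio was near 0 in the later replicates of ACS6. All 3 calls were lost without either replicate of 30 min, that of EBF1 also without 360 min replicate 1, and in the authors' log ratios (-0.68, adjusted p = 0.0863). Of 17 cytokinin genes tested 1 was higher and 1 lower (median 0.015, below 0 in 3 settings). These shares of 5.88% each stood beside 2.56% higher and 4.83% lower among all genes. CKX4, a cytokinin oxidase, had log2 ratios of -0.17 and -0.20 at 360 min, against 0.41 and 0.30 at 30 min, and a difference of -0.54 ± 0.062 (SE, adjusted p = 0.00924). The response regulator gene RR3 (ARR8) was called higher, but its wounded RNA was not well above background on any array of 30 min, so that no size is given. Both cytokinin calls were lost without either replicate of 30 min, that of RR3 also without 360 min replicate 1, and 3 genes were higher and 1 lower without 360 min replicate 2. Of 10 salicylate genes 0 passed, against 7.39% of all genes (median -0.084). Their differences ran between -0.52 for the transporter gene EDS5 and 0.07 for NPR1, a regulator of salicylate responses.

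**Figure D5:**
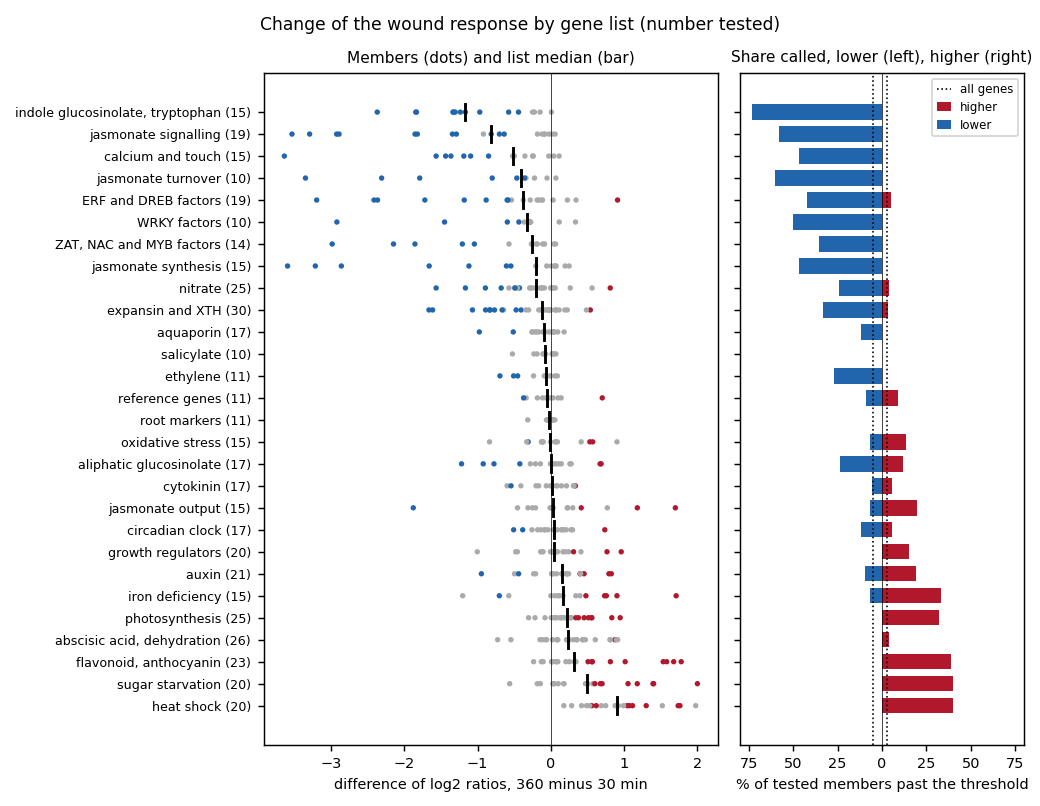
Left, the difference of log2 ratios (360 minus 30 min) of every tested member of 28 gene lists, with the list median as a bar and called members in blue (lower) or red (higher). Right, the share of tested members called lower and higher, beside 4.83% and 2.56% of all genes (dotted). Lists and members were chosen with earlier results of these data known, so a share beyond the dotted lines is no test. Indole glucosinolate, jasmonate signalling and touch genes lie lowest, and heat shock, sugar-starvation and anthocyanin genes highest.

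Some genes had ratios of opposite sign at the times. The ratio was below 0 on all 4 arrays of 360 min and above 0 on all 4 of 30 min for 256 of the 924 lower genes, and the opposite held for 171 of the 490 higher genes. How many of all 19145 genes had such signs was not counted, so these numbers describe the called genes only. NAI1, AT1G26800, AT4G14270 and BHLH100, named below, were picked for these signs. TCH4, AT5G56980, WRKY18, SOT16, DFR and AT4G22870, described above, were picked by the same rule among others. The opposite signs of all these genes were thus fixed by the choice and add no support to their differences. Responses past the threshold at both times, in opposite directions, were fewer, at 65 of the lower and 37 of the higher genes. NAI1, AT1G26800 and AT4G14270 were among these, and BHLH100 passed at neither time alone. NAI1, a bHLH factor of endoplasmic reticulum bodies, had log2 ratios of -0.28 and -0.43 at 360 min, against 1.82 and 1.6 at 30 min, and a difference of -2.07 ± 0.094 (SE, adjusted p = 0.00063). Over the alternative settings its difference ran between -3.13 and -1.51. AT1G26800, annotated as an expressed protein, had log2 ratios of 1.06 and 1.05 at 360 min, against -0.65 and -0.83 at 30 min. Both later replicates were above 1 and both earlier ones below -0.6, with a difference of 1.79 ± 0.074 (SE, adjusted p = 0.000521). AT4G14270, also annotated as an expressed protein, had log2 ratios of 0.83 and 0.90 at 360 min, against -0.77 and -1.07 at 30 min, and a difference of 1.79 ± 0.10 (SE, adjusted p = 0.00125). Its level was higher at 360 min by 1.97 in wounded and 0.18 in unwounded shoots. BHLH100, a factor of the iron deficiency response, had log2 ratios of 1.41 and 0.74 at 360 min, against -1.04 and -0.23 at 30 min. The replicates of each time differed by more than 0.6 but kept their sign, and the difference of 1.71 ± 0.32 (SE, adjusted p = 0.0372) was lost without either replicate of 30 min and in the authors' log ratios (2.71, adjusted p = 0.0989).

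A response of one direction at both times, with no called difference, was found for 114 genes, 64 above 0 and 50 below 0. A missed threshold does not show that such responses were equal. IGMT5, an indole glucosinolate methyltransferase, had log2 ratios of 0.85 and 1.07 at 360 min, against 1.91 and 1.45 at 30 min. All 4 were above 0, the later ones lower, and the difference was -0.72 ± 0.16 (SE, 95% interval -1.11 to -0.32, adjusted p = 0.06). BT2, a nitrate- and light-regulated BTB protein, had log2 ratios of -0.54 and -0.98 at 360 min, against -1.15 and -1.5 at 30 min, all below 0, and a difference of 0.56 ± 0.18 (SE, 95% interval 0.13 to 1.0, adjusted p = 0.136). AT5G61590 (DEWAX), a repressor of wax synthesis, had log2 ratios of -0.46 and -0.97 at 360 min, against -1.2 and -1.37 at 30 min, and a difference of 0.56 ± 0.17 (SE, adjusted p = 0.124). AT5G19190, annotated as a putative protein, had log2 ratios of -0.39 and -0.82 at 360 min, against -0.79 and -1.08 at 30 min, which overlapped slightly, and a difference of 0.33 ± 0.16 (SE, adjusted p = 0.323). EXPA1, an expansin, had log2 ratios of -0.74 and -0.90 at 360 min, against -0.35 and -0.68 at 30 min, without overlap, and a difference of -0.30 ± 0.12 (SE, adjusted p = 0.233). Without 360 min replicate 2 the differences of IGMT5 (-0.82, adjusted p = 0.0374), BT2 (0.78, adjusted p = 0.0228), AT5G61590 (0.82, adjusted p = 0.00419) and AT5G19190 (0.55, adjusted p = 0.045) passed.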

How the data were processed

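The deposited scanner files hold linear spot intensities of 8 Agilent 2-colour arrays (mean signals and local background medians) and, per the file headers, a log10 ratio of Cy5 over Cy3 that Feature Extraction computed after background subtraction and dye normalization. Agilent Feature Extraction 7.1.1 is named in the submitters' processing notes. The deposited series table equals those log10 ratios and was not used separately. Mean signals were corrected with normexp (offset 50) and normalized by loess within arrays, leaving the 1075 control spots out of the curve, with limma 3.58.1 in R 4.3.3. Spots that the scanner software called outliers were left out, and ratios were turned to wounded over unwounded from the dyes given per the labels. The log2 ratios of a dye-swap pair were averaged into 1 replicate. Probes had to be well above background in all 4 measurements of at least 1 of the 4 conditions, which 19178 of 21500 were, and 33 of these lacked a value at one time. The fit had a coefficient per time, and their contrast was tested with lmFit and eBayes, 2-sided, with Benjamini-Hochberg adjustment over all 19145 genes at 0.05. SE and 95% intervals come from that fit, on 2 degrees of freedom from the replicates (1 where a time had 1 replicate) and 3.58 from the prior. They do not cover the spread between processing settings. With at most 2 replicates at each time the number of arrays limits the precision, and where a replicate had no value the fit used those left. Log2 levels of single channels are values after loess and quantile normalization of average intensities between arrays.

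Genes are called by the symbol of RefSeq's table where it holds the locus code of the array (21191 probes, 98.6%), and otherwise by that code. Members and lists were chosen with earlier results of these data known. Named genes were the 12 highest and 12 lowest differences among called genes with all 4 replicates and no overlap, up to 3 members of each list with the smallest adjusted p, the 5 highest and 5 lowest that changed sign on all 8 arrays, the 5 highest and 5 lowest responses called at both times without a called difference, the 5 highest and 5 lowest called at 360 min alone, and JAZ10, AOS, LOX2, OPR3, VSP2, NIA1, TCH4 and ZAT12. Other list members were named, after their values were seen, to complete a list. Replicate numbers did not pair the times: deviations of same-numbered replicates correlated at -0.0325 over genes. Alternatives changed the background correction, normalization, filter, outlier spots, prior, block, dyes and replicates, and an offset scaled to array brightness was added after seeing the data. On simulated data of 19178 genes the contrast recovered 61.8% of 55 changes of 0.5 on the log2 scale, 97.7% of 86 changes of 1 and 98.3% of 59 changes of 2, with 11 false calls. The simulated noise was normal, with variances drawn from the prior of the fit and equal at both times. It had no missing values and no dye or batch effects, and 200 genes were changed. These rates therefore check the fit under its own assumptions and not the error rate in these arrays.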

Additional observations from a re-analysis of the deposited data

Results flagged for a closer look

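The difference between the times was itself tested, and by that test 490 genes had a higher and 924 a lower wound response at 360 min. Among those whose ratio had opposite signs at the times on all 8 arrays, the highest differences were 1.79 for AT1G26800, 1.79 for AT4G14270, 1.78 for DFR, 1.76 for AT4G22870 and 1.71 for BHLH100, all below 0 at 30 min. The lowest were -3.64 for TCH4, -3.22 for AT5G56980, -2.92 for WRKY18, -2.37 for SOT16 and -2.07 for NAI1, all above 0 at 30 min. Of these 10, the ratio at one of the times alone did not pass the threshold for DFR, AT4G22870, WRKY18, AT5G56980 and SOT16, nor at either time for BHLH100. The call of BHLH100 was lost without either replicate of 30 min, and the calls of the 9 other genes were kept whichever replicate was left out.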

How the results depend on the processing

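Leaving out 1 replicate at a time gave 169 to 1720 called genes, 32 to 798 higher and 127 to 964 lower. The single replicate left at a time was then given the spread found at the other time. Without normalization 2703 genes were called (2352 lower), with the authors' log ratios 716 (240 higher, 476 lower), and with the 8 arrays fitted and the dye pair as a random block 2929 (1108 higher, 1821 lower). The random-block fit takes the 2 arrays of a pair, which are technical repeats, as separate observations. It estimated a correlation of -0.212 within pairs, so that its count is not one from more biological replicates. Arrays with the wounded RNA in Cy3 alone gave 502 (161 higher, 341 lower), and a log2 difference of at least 1 as a further condition gave 225 (54 higher, 171 lower). The causes were not tested. With the replicate block 1272 genes were called, 458 higher and 814 lower, 1142 of them shared with the 1414. Of 1414 calls 2 had the opposite sign in any setting, both with the wounded RNA in Cy5 alone. Of 89 named genes with a call, 39 kept it whichever replicate was left out, 45 lost it without either replicate of 30 min, and 19 lost it with the authors' log ratios. Signs turned in 4 genes with no call: LOX2 had -0.023 without normalization and -0.13 with ratios scaled between arrays, RD20 lay between -1.15 and 0.061 when 1 replicate was left out, and PAP1 -0.003 with the offset scaled to array brightness. EXPA8 had 0.14 with outlier spots kept, 0.034 with the random block, 0.11 with the replicate block, -0.17 to 0.11 when 1 replicate was left out, 0.069 with the wounded RNA in Cy5 alone and 0.012 with the scaled offset. Of the lists, with the authors' log ratios the calls were 3 of heat shock, 1 of photosynthesis, 2 of nitrate, 2 of WRKY, 2 of jasmonate output, 3 of iron deficiency and 1 of ethylene genes, and with the wounded RNA in Cy3 alone 4 of anthocyanin, 4 of expansin and XTH and 3 of jasmonate turnover genes. Dim signals limit what can be read: 18 called genes had a condition, at either time, in which they were never well above background. Apart from that, 72 calls rest on 1 replicate at one of the times because outlier spots were left out.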

Other observations

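Iron deficiency genes, which answer the iron status of the plant, were higher at 360 min for 5 of 15 tested and lower for 1, with a median of 0.17. The differences of the 15, called or not, ran between -1.2 and 1.71. BHLH101, 1 of the bHLH factors that start iron uptake in roots, had log2 ratios of 0.73 and 0.46 at 360 min, against -0.38 and -0.24 at 30 min. Both later replicates were above 0 and both earlier ones below it, and the difference was 0.90 ± 0.11 (SE, adjusted p = 0.0101). bHLH39, a related factor, had log2 ratios of 0.68 and 0.38 at 360 min, against -0.22 and -0.23 at 30 min, but its wounded RNA was well above background on 1 of 4 arrays at 30 min. OPT3, a transporter of iron in the phloem, was higher (0.48), and FER3, an iron storage protein, was lower (-0.70). Among 17 aquaporin genes tested 2 were lower at 360 min and 0 were higher, with a median of -0.099. DELTA-TIP, a water channel of the vacuole, had log2 ratios of -0.90 and -0.99 at 360 min, against 0.26 and -0.20 at 30 min. TIP2, another vacuolar channel, had log2 ratios of -0.52 and -0.52 at 360 min, against 0.071 and -0.087 at 30 min, and neither gene's replicates overlapped between the times. Their differences were -0.98 ± 0.15 (SE, adjusted p = 0.0204) for DELTA-TIP and -0.51 ± 0.07 (SE, adjusted p = 0.0151) for TIP2. All iron calls were lost without either replicate of 30 min, that of TIP2 likewise, and that of DELTA-TIP without 30 min replicate 1.

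Among 20 growth regulator genes tested 3 were higher at 360 min and 0 were lower, with a median of 0.046 that came to -0.10 when arrays were not normalized. Differences of these 20 ran between -1.0, which did not pass, and 0.96. Without 360 min replicate 2, 5 were higher. PRE1, a small HLH protein that promotes cell elongation, had log2 ratios of 0.40 and 0.40 at 360 min, against -0.39 and -0.74 at 30 min. The sign was opposite at the times, and the difference was 0.96 ± 0.12 (SE, adjusted p = 0.0103), kept whichever replicate was left out. HBI1, a bHLH factor of growth, had log2 ratios of -0.38 and -0.79 at 360 min, against -1.26 and -1.44 at 30 min, all below 0 and nearer to it at the later time, with a difference of 0.77 ± 0.14 (SE, adjusted p = 0.0375) that was lost without either replicate of 30 min. Log2 levels differed between the times by -0.25 in wounded and -1.21 in unwounded shoots for PRE1, and by 0.064 and -0.70 for HBI1. Of 17 clock genes tested 1 was higher (5.88%, against 2.56% of all genes) and 2 were lower (11.8%, against 4.83%), with a median of 0.038. AT5G64170 (LNK1), a clock co-activator gene, had log2 ratios of 0.74 and 0.69 at 360 min, against 0 and -0.047 at 30 min, at a difference of 0.74 ± 0.056 (SE, adjusted p = 0.00278). PCL1 (LUX), a part of the evening complex, had log2 ratios of -0.18 and -0.22 at 360 min, against 0.25 and 0.12 at 30 min, at a difference of -0.38 ± 0.066 (SE, adjusted p = 0.0288). Of 15 oxidative stress genes tested 2 were higher (13.3%, against 2.56% of all genes) and 1 was lower (6.67%, against 4.83%), with a median of -0.004. GSTF6, a glutathione transferase, had log2 ratios of 0.32 and 0.44 at 360 min, against -0.19 and -0.19 at 30 min, at a difference of 0.57 ± 0.062 (SE, adjusted p = 0.00786). The clock and oxidative stress calls were lost without either replicate of 30 min.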
